A study of Homo sapiens with 18 samples.

Results

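The genes described here are 10 genes that prepare peptides for HLA class I molecules, out of 16472 genes in the table of expression values. They were taken by name: the induced catalytic proteasome subunits PSMB8, PSMB9 and PSMB10, the chains PSME1 and PSME2 of the PA28 proteasome activator, the peptide transporter chains TAP1 and TAP2, tapasin (TAPBP), and the endoplasmic reticulum aminopeptidases ERAP1 and ERAP2. All 10 were found and all 10 passed the filter on low values. Their levels were followed in NIKS cells, an established line of immortalized human keratinocytes grown on irradiated mouse J2/3T3 fibroblasts. Cells with the SP100 genotype WT or KO were left untreated (0 h) or given human interferon alpha 2a (25 ng/mL) and collected after 12 or 48 h. Each of these 6 groups has 3 libraries, titled biological replicates, which gives 18 stranded polyA RNA libraries. The library names carry a single line name for each genotype (Vec2 for WT and KO5 for KO), and the effect of SP100 cannot be told apart from other differences of these lines. Untreated cells at 12 and 48 h were not analysed here, and the same holds for hours in interferon and hours in culture, which cannot be told apart. The p-values therefore measure the spread between replicate libraries of 1 line per genotype.

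The proteasome cuts cytosolic proteins into peptides. In the immunoproteasome, PSMB8, PSMB9 and PSMB10 take the places of the standard catalytic subunits PSMB5, PSMB6 and PSMB7, and PA28, a ring of PSME1 and PSME2, caps the core and eases the passage of peptides. The TAP1 and TAP2 heterodimer pumps peptides into the endoplasmic reticulum, ERAP1 and ERAP2 trim their N-terminal ends, and tapasin bridges TAP to empty class I molecules and edits the peptides they bind. Type I interferon signals through a complex that includes STAT2 and IRF9 and binds the interferon-stimulated response element. SP100 is a constituent of PML nuclear bodies and is itself an interferon-stimulated gene.

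Short stretches of RefSeq promoters (build GRCh38.p14) are shown first because 9 of the 10 genes hold the core letters of that response element near a start site. The letters searched, on both strands, were GAAA, any 2 bases and GAAA again. In the 250 bases before the start they occurred in 6 of the 10 genes (PSMB10, PSME2, TAP1, TAP2, TAPBP and ERAP2), against 3.71% of 27305 genes in the promoter table. With the first 50 bases after the start included, a window chosen after the matches had been seen, the count was 9 of 10, with PSMB8, PSME1 and ERAP1 added, against 4.38% of genes. Some genes have several start sites, so the 10 genes have 14 windows and a gene was counted if any of its windows matched. Each stretch below is 30 bases on the strand of the gene, with the matching letters in capitals. Overlapping matches, found in TAP1 and TAPBP, are capitalised as a single run.
PSMB8, chr6:32844032-32844061, minus strand: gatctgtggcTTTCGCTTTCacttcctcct
PSMB10, chr16:67936852-67936881, minus strand: gggtaaaggcGAAAGCGAAAgcaggaagta
PSME1, chr14:24136189-24136218, plus strand: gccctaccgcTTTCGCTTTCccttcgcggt
PSME2, chr14:24146619-24146648, minus strand: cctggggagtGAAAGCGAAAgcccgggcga
TAP1, chr6:32853816-32853845, minus strand: cggccgcTTTCGATTTCGCTTTCccctaaa
TAP2, chr6:32838778-32838807, minus strand: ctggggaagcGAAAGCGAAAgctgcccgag
TAPBP, chr6:33314076-33314105, minus strand: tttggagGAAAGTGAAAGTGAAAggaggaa
ERAP1, chr5:96807924-96807953, minus strand: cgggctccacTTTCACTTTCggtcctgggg
ERAP2, chr5:96876460-96876489, plus strand: tcttagaacaGAAAGTGAAAgcaaaagtaa

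The matches lay close to the start in most of these genes, counted for PSMB8 and ERAP2 from the second listed start site. The TAPBP run ended 5 bases before the start, the PSMB10 match 12 bases before it, the PSME2 match 19, the ERAP2 match 21 and the TAP2 match 49 bases before it. PSMB8's match spanned the start, and those of PSME1 and ERAP1 lay just after it. PSMB9, whose windows hold no such match, starts 487 bases from TAP1 and is transcribed in the opposite direction. The TAP1 run, chr6:32853823-32853838, lies in the interval between these starts, 119 bases from the TAP1 start and 354 bases from the PSMB9 start. Letters of the gamma-activated site, TTCNNNGAA, were found in 2 of 10 genes (PSMB8 and TAP1, against 8.09% of genes), and those of a kappa B site, GGGA, any 4 bases and CC, in 4 of 10 (PSME2, TAP1, TAPBP and ERAP1, against 25.8%), both on either strand in the 250 bases before the start. Of the standard subunits only PSMB5 was matched in the promoter table, and its windows hold no match to the response element core or the kappa B site. They do hold letters of the gamma-activated site before the start. These are matches of letters and not measured binding sites.

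Relative depth, recovered from the spacing of low values in 258 genes, ranged from 0.842 to 1.270 of the mean, and the total number of reads is unknown. Replicates of a group correlated at r = 0.985 to 0.989 across genes, which are not independent replicates, and held identical values in only 0.851 to 1.17% of genes. SP100, the targeted gene, was lower but not absent in KO: untreated WT libraries held 30.1, 31.9 and 27.9 RPKM (reads per kilobase of gene, scaled to library size) and untreated KO libraries 16.0, 14.2 and 15.2 RPKM. On the log2(RPKM + 1) scale, KO less WT gave -0.94 untreated, -0.83 after 12 h and -1.08 after 48 h. SP100 rose with interferon in both lines. KO libraries held 93.2, 86.5 and 87.5 RPKM at 12 h and 59.45, 57.4 and 62.4 RPKM at 48 h, all above untreated WT libraries. WT libraries held 155.5, 172 and 151 RPKM at 12 h and 127, 124 and 131 RPKM at 48 h. A transcript that is still read does not test whether the protein was lost. All 9 keratinocyte markers were measured (summed level 14604.7 to 17644.4 RPKM). At 12 h in WT 4 of the 9 were called higher and 2 lower, KRT15 most (-1.06), and in untreated cells 3 (COL17A1, LAMB3 and SFN) were called lower in KO. Of the other cell types, 1 of 10 immune markers was in the table, CD14, at 1.25 to 6.64 RPKM, and it was called lower in interferon at both times in both genotypes. The part of these markers in the results was not tested. Of 9 fibroblast markers 3 were in the table, with a summed level of 5.84 to 8.93 RPKM, and of 5 melanocyte markers only PMEL, at 0.37 to 1.57 RPKM. All of the 10 genes except TAPBP overlap another annotated gene: PSMB9 overlaps PSMB8 and TAP1 on the opposite strand, and TAP2 overlaps AL669918.1 (0.45 to 9.53 RPKM) and PSMB10 AC040162.1 (0.32 to 2.38 RPKM) on the same strand. Whether the counting used strand is not given in the sources used here, so reads could have been shared among them.

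All 10 genes rose within 12 h of interferon in both genotypes, and 9 of 10 were still above untreated cells at 48 h in both. PSMB9 changed most and PSME1 least at 12 h. The tests are those of limma on log2(RPKM + 1) with Benjamini-Hochberg adjustment over 13280 genes tested, and a gene was called at an adjusted p under 0.05. At 12 h, 44.9% of all tested genes were called in WT in either direction and 15.1% were called higher. In KO, 48.8% were called and 16% higher. At 48 h, 12.8% of tested genes were called in WT, 6.52% as higher, and 13.3% in KO, 5.9% as higher. The median change of the 10 genes was 1.13 at 12 h in WT, where that of all tested genes was -0.09, and 1.10 in KO, where it was -0.09. The split of all calls at 12 h depended on scaling: it was 2005 higher and 3959 lower in WT and 2123 and 4362 in KO as deposited, and 2892 and 2717 in WT and 3153 and 3040 in KO with median-of-ratios scaling. The calls of the 10 genes at 12 and 48 h did not change with it. At 48 h the medians of the 10 genes were 0.94 in WT and 0.79 in KO, and those of all genes were -0.0025 and -0.01. Libraries that did not overlap between treated and untreated cells were seen for 10 genes at 12 h and 9 at 48 h in both genotypes, all higher with interferon; groups that do not overlap, in either direction, made up 53.7% and 32.6% of tested genes in WT and 55.2% and 29.1% in KO. In bulk RNA, a change in the number of cells that express a gene and a change in RNA per cell cannot be told apart.

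**Figure D1:**
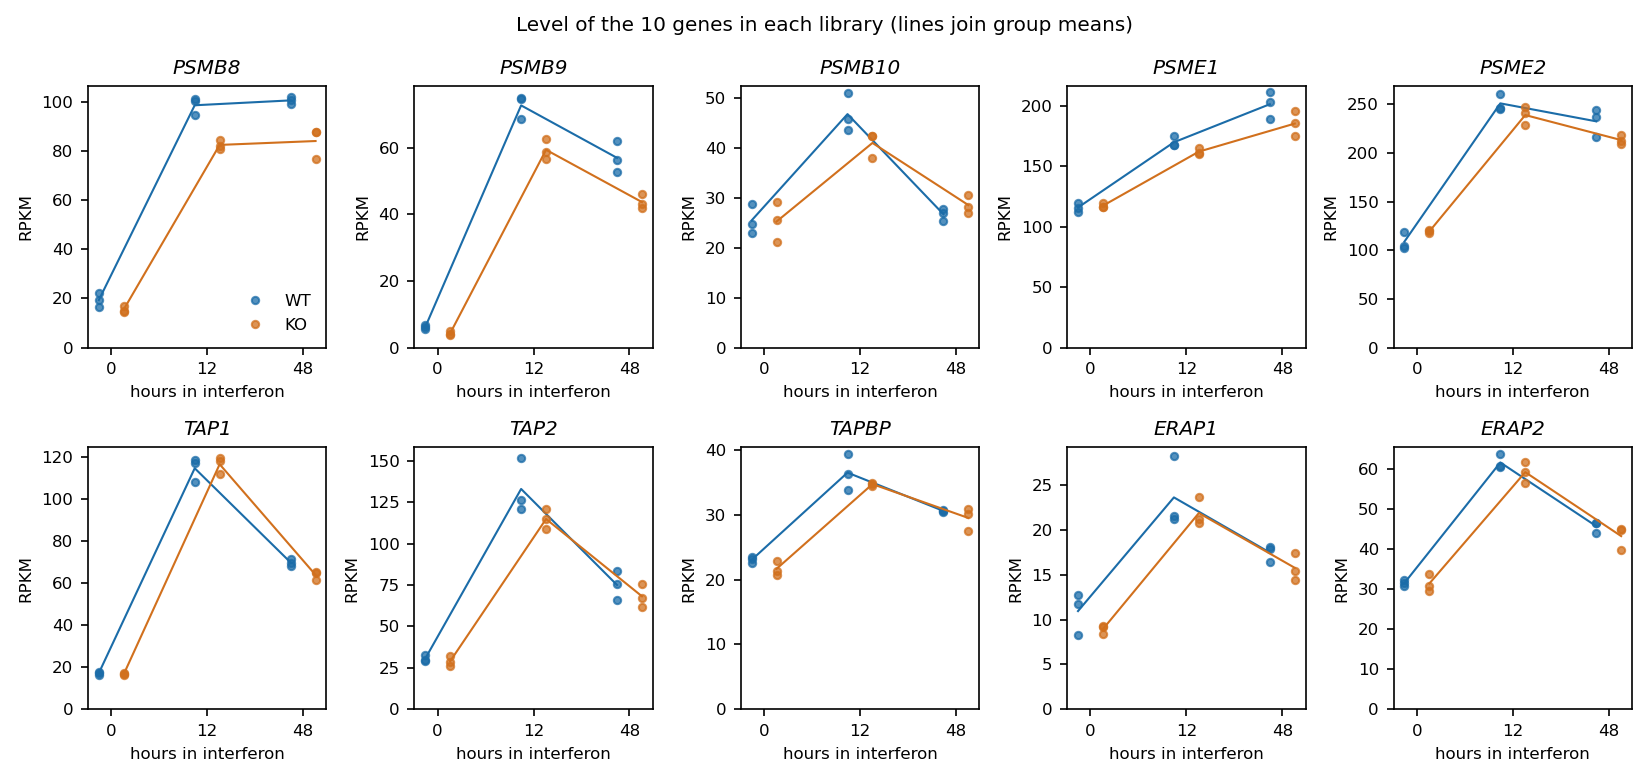
RPKM of each of the 10 genes (vertical axis from 0, own scale per gene) in the 18 libraries at 0, 12 and 48 h in interferon (horizontal axis, evenly spaced and not to scale), with WT in blue and KO in orange and set slightly apart. Points are libraries and lines join group means; every gene except PSMB10 is above its untreated libraries at both 12 and 48 h.

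PSMB8, the induced subunit that takes the place of PSMB5, rose about 5-fold and stayed there. Its level in WT was 22.1, 16.7 and 19.2 RPKM untreated, 94.4, 100.2 and 101.03 RPKM at 12 h, and 100.5, 102 and 99.1 RPKM at 48 h. In KO it was 16.9, 14.6 and 15.05 RPKM untreated, 80.8, 82.1 and 84.4 RPKM at 12 h, and 87.9, 87.5 and 76.6 RPKM at 48 h. Treated and untreated libraries were far apart, while the 12 and 48 h libraries overlapped in both genotypes. The change at 12 h was 2.30 in WT (SE 0.08, limma adjusted p = 6.29e-13) and 2.34 in KO. At 48 h it was 2.33 in WT and 2.36 in KO, and between 12 and 48 h it was 0.03 and 0.02 (limma adjusted p = 0.803 and 0.831).

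PSMB9, which replaces PSMB6, had the lowest untreated level of the 10 genes and the largest change. In WT its level was 6.09, 5.52 and 6.74 RPKM untreated, 68.6, 74.5 and 74.99 RPKM at 12 h, and 56.2, 62.05 and 52.6 RPKM at 48 h. Its KO libraries held 3.95, 3.88 and 4.99 RPKM untreated, 56.8, 58.7 and 62.7 RPKM at 12 h, and 41.8, 46.2 and 43.0 RPKM at 48 h. None of the 3 times overlapped with another within a genotype, and 12 h was the highest in both. In log2(RPKM + 1), where changes at low levels come out too small, the gain at 12 h was 3.38 in WT (SE 0.08, limma adjusted p = 8.47e-15) and 3.52 in KO, placing PSMB9 at rank 48 from the top of all 13280 tested genes in WT. It then fell by 0.35 from 12 to 48 h in WT (limma adjusted p = 0.0041) and by 0.43 in KO (limma adjusted p = 0.000665), leaving it 3.03 and 3.09 above untreated cells.

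PSMB10, which replaces PSMB7, was the exception among the catalytic subunits. WT cells held 23.0, 24.8 and 28.8 RPKM untreated, 51.0, 43.75 and 45.8 RPKM at 12 h, and 27.7, 27.1 and 25.5 RPKM at 48 h. KO cells held 21.2, 25.5 and 29.2 RPKM untreated, 38.1, 42.6 and 42.5 RPKM at 12 h, and 27.0, 30.6 and 28.2 RPKM at 48 h. The gain seen at 12 h was no longer detected at 48 h, when treated and untreated libraries overlapped in both genotypes. The change was 0.85 at 12 h in WT (SE 0.10, limma adjusted p = 5.07e-06) and 0.69 in KO (limma adjusted p = 3.56e-05). At 48 h it was 0.07 in WT (limma adjusted p = 0.706) and 0.18 in KO (limma adjusted p = 0.268). From 12 to 48 h PSMB10 fell by 0.78 in WT and by 0.51 in KO.

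Because each induced subunit competes with a standard one for a place in the core, the transcript ratio was computed within each library. PSMB8 stood at 14.4 ± 2.31% of the level of PSMB5 in untreated WT cells (SD, n = 3, as for all ratios here), 65.6 ± 2.45% at 12 h and 73.9 ± 2.25% at 48 h. In KO the PSMB8 share was 10.9 ± 0.836%, 54.7 ± 1.51% and 60.4 ± 2.24%. PSMB8 thus came to more than 50% of its partner's level at both times. PSMB9 was at 4.06 ± 0.482% of PSMB6 in untreated WT cells, 49.8 ± 1.55% at 12 h and 40.9 ± 3.75% at 48 h. The PSMB9 share in KO was 2.76 ± 0.325%, 41.5 ± 1.47% and 31.1 ± 2.09%. PSMB10 moved least: its share of PSMB7 in WT was 15.9 ± 2.23% untreated, 25.3 ± 2.62% at 12 h and 15.2 ± 0.669% at 48 h. Shares of PSMB10 in KO were 15.1 ± 2.69%, 22.5 ± 1.11% and 16.8 ± 1.497%. These are ratios of transcripts and not of subunits built into proteasomes, and the 3 ratios were not tested against each other.

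In log2 terms the WT ratio of PSMB8 to PSMB5 was above that of untreated cells by 2.14 at 12 h and 2.31 at 48 h, and that of PSMB9 to PSMB6 by 3.42 and 3.14. For PSMB10 to PSMB7 the WT values were 0.66 at 12 h and -0.06 at 48 h. Treated and untreated ratios did not overlap for PSMB8 and PSMB9 at either time or for PSMB10 at 12 h, with an exact two-sided permutation p of 0.1 (no smaller value is possible with 3 libraries on each side) and 0.156 after adjustment over 42 tests. For PSMB10 at 48 h the exact permutation p was 0.9 in WT and 0.5 in KO. The standard subunits moved little: PSMB5 changed by 0.16, PSMB6 by -0.05 and PSMB7 by 0.20 at 12 h in WT, of which PSMB5 and PSMB7 were called.

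**Figure D2:**
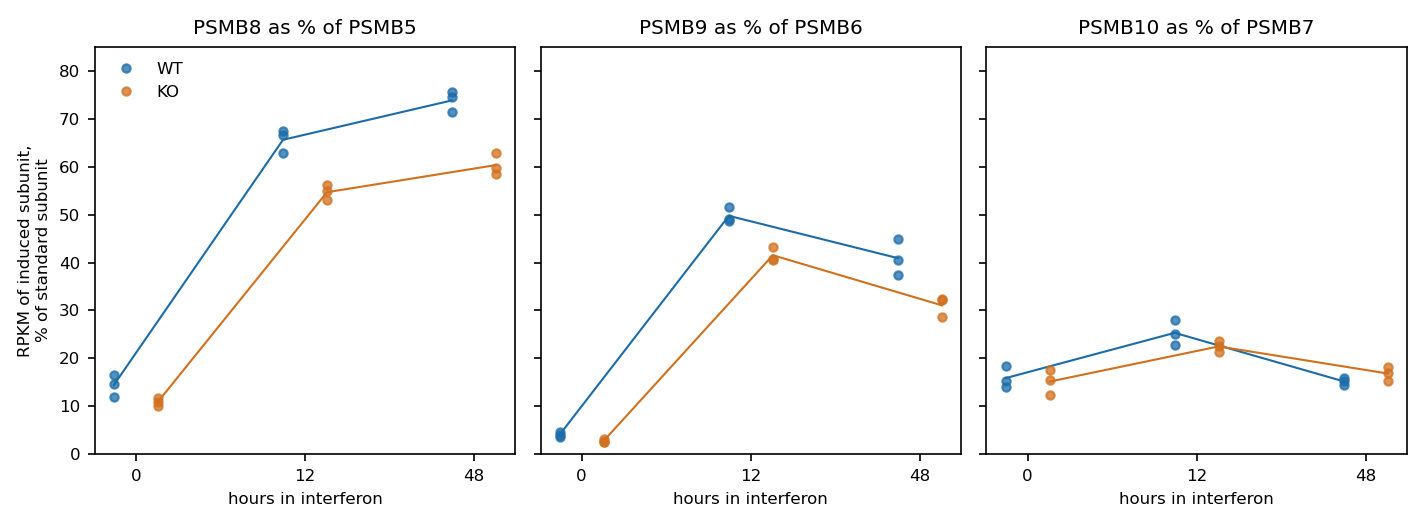
Level of each induced subunit as a percent of the standard subunit whose place it takes (vertical axis, ratio of RPKM), in every library at 0, 12 and 48 h (horizontal axis, evenly spaced), with WT in blue and KO in orange; lines join group means. PSMB8 reached 73.9% of PSMB5 at 48 h in WT, PSMB9 peaked at 49.8% of PSMB6 at 12 h, and PSMB10 came back to 15.2% of PSMB7 at 48 h.

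The PA28 chains, already the most abundant of the 10 transcripts in untreated cells, took different courses. PSME1 held 119.9, 112 and 116 RPKM in untreated WT cells, 175, 168 and 167 RPKM at 12 h, and 189, 203 and 211.5 RPKM at 48 h. Its KO levels were 119, 117 and 116 RPKM untreated, 160.2, 161 and 165 RPKM at 12 h, and 196, 186 and 175 RPKM at 48 h. PSME1 was the only one of the 10 genes called higher at 48 h than at 12 h, and its 3 times did not overlap in either genotype. It gained 0.55 at 12 h in WT (SE 0.04, limma adjusted p = 9.21e-08) and 0.46 in KO, and a further 0.24 from 12 to 48 h in WT (limma adjusted p = 0.000543) and 0.19 in KO (limma adjusted p = 0.00282). With median-of-ratios scaling, the last of these was 0.10 and was not called (limma adjusted p = 0.0786).

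PSME2, the partner chain, held 119, 103 and 105 RPKM in untreated WT cells, 245, 261 and 246 RPKM at 12 h, and 216, 244 and 237 RPKM at 48 h. In KO its level was 119.5, 117 and 121 RPKM untreated, 247, 241 and 229 RPKM at 12 h, and 213, 209 and 218 RPKM at 48 h. It rose about 2-fold, and all 3 libraries at 48 h lay below all 3 at 12 h in both genotypes. The gain at 12 h was 1.20 in WT (SE 0.05, limma adjusted p = 3.64e-11) and 0.99 in KO, and at 48 h it was 1.09 in WT and 0.83 in KO. The later step was -0.11 in WT (limma adjusted p = 0.121) and -0.16 in KO (limma adjusted p = 0.0238). With median-of-ratios scaling the WT step was -0.20 and was called (limma adjusted p = 0.00685), and in KO the call was lost in 4 of the fits that left out a single library (limma adjusted p 0.055 to 0.0892).

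Nearly equal in untreated cells, PSME1 and PSME2 separated under interferon. PSME1 was at 107 ± 5.41% of the PSME2 level in untreated WT cells, 67.8 ± 3.51% at 12 h and 86.7 ± 3.18% at 48 h. The same ratio in KO was 98.4 ± 2.23%, 68.0 ± 3.66% and 87.0 ± 6.11%. Treated less untreated cells gave log2 values of -0.65 at 12 h and -0.30 at 48 h in WT, with -0.53 and -0.18 in KO, with an exact permutation p of 0.1 for each and 0.156 after adjustment. PSME2 pseudogenes could share reads with PSME2: PSME2P2 reached 10.3 RPKM and PSME2P1 2.62 RPKM, both far under the level of PSME2.

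The peptide transporter genes rose strongly and then lost part of the gain. TAP1 held 16.4, 17.8 and 17.1 RPKM in untreated WT cells, 108, 117 and 118 RPKM at 12 h, and 68.0, 71.4 and 69.6 RPKM at 48 h. KO cells held 17.1, 16.5 and 16.1 RPKM of TAP1 untreated, 112, 119 and 118 RPKM at 12 h, and 64.9, 65.3 and 61.2 RPKM at 48 h. Replicates lay close together and the 3 times were fully apart. TAP1 gained 2.67 at 12 h in WT (SE 0.05, limma adjusted p = 4.01e-17) and 2.74 in KO, the second largest change of the 10 genes, at rank 66 of 13280 in WT. From 12 to 48 h it fell by 0.71 in WT (limma adjusted p = 1.47e-08) and by 0.86 in KO (limma adjusted p = 1.41e-09), and it remained 1.97 and 1.88 above untreated cells.

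TAP2, the other chain of the transporter, held 32.4, 29.9 and 29.15 RPKM in untreated WT cells, 152, 121 and 126 RPKM at 12 h, and 83.5, 75.75 and 65.7 RPKM at 48 h. In KO it was at 26.2, 32.2 and 28.3 RPKM untreated, 121, 115 and 109 RPKM at 12 h, and 61.6, 75.8 and 67.1 RPKM at 48 h. The course was that of TAP1 with a smaller gain and a wider spread. The gain was 2.08 at 12 h in WT (SE 0.10, limma adjusted p = 1.16e-10) and 1.96 in KO, and 1.27 and 1.21 at 48 h. The step from 12 to 48 h was -0.82 in WT and -0.75 in KO. TAP1 stood at 56.3 ± 4.87% of TAP2 in untreated WT cells, 87.2 ± 14.0% at 12 h and 93.9 ± 12.2% at 48 h, and at 57.9 ± 7.13%, 101.6 ± 8.27% and 94.2 ± 9.91% in KO. The 2 chains of the heterodimer were thus nearer to equal transcript levels in interferon than without it. The log2 ratio of TAP1 to TAP2 was higher at 12 h than untreated by 0.59 in WT and by 0.78 in KO (exact permutation p = 0.1 for each, 0.156 after adjustment). In KO it went from -0.76 to 0.02.

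TAPBP, the tapasin gene, was among the least changed. Its WT libraries ranged from 22.5 to 23.5 RPKM untreated, 33.8 to 39.4 RPKM at 12 h and 30.4 to 30.8 RPKM at 48 h. KO libraries ranged from 20.7 to 22.8 RPKM untreated, 34.5 to 34.9 RPKM at 12 h and 27.4 to 30.9 RPKM at 48 h. No range overlapped with another within a genotype. TAPBP gained 0.64 in WT (SE 0.05, limma adjusted p = 1.71e-07) and 0.66 in KO at 12 h, and 0.39 and 0.43 at 48 h.

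The aminopeptidase genes ERAP1 and ERAP2 also peaked at 12 h. ERAP1, the lowest of the 10 transcripts after treatment, held 12.8, 8.30 and 11.8 RPKM in untreated WT cells, 21.5, 28.2 and 21.2 RPKM at 12 h, and 16.5, 18.1 and 17.9 RPKM at 48 h. Its KO libraries held 9.22, 9.24 and 8.37 RPKM untreated, 20.8, 21.2 and 23.7 RPKM at 12 h, and 17.5, 15.5 and 14.4 RPKM at 48 h. The WT replicates of ERAP1 spread widely, and replicate 2 was the lowest untreated and the highest at 12 h. ERAP1 gained 1.05 at 12 h in WT (SE 0.13, limma adjusted p = 7.8e-06) and 1.20 in KO, and 0.65 and 0.75 at 48 h. The step from 12 to 48 h was -0.40 in WT (limma adjusted p = 0.0214), which was not called without WT replicate 2 at 12 h (limma adjusted p = 0.114) or WT replicate 1 at 48 h (limma adjusted p = 0.0668), and -0.45 in KO. CAST overlaps ERAP1 on the opposite strand at 148 to 192 RPKM, a level well above that of ERAP1.

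ERAP2 was steadier. WT libraries ranged from 30.8 to 32.2 RPKM untreated, 60.3 to 63.6 RPKM at 12 h and 44.0 to 46.5 RPKM at 48 h, and KO libraries from 29.4 to 33.8, 56.5 to 61.7 and 39.8 to 45.05 RPKM. It gained 0.95 at 12 h in WT (SE 0.06, limma adjusted p = 1.46e-09) and 0.90 in KO, and 0.52 and 0.45 at 48 h. ERAP1 stood at 34.7 ± 6.81% of ERAP2 in untreated WT cells and 38.3 ± 5.28% at 12 h, a difference within the spread (exact permutation p = 0.7). In KO the ratio was 28.6 ± 1.35% untreated and 37.1 ± 3.20% at 12 h, and the libraries did not overlap (exact permutation p = 0.1, 0.156 after adjustment).

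**Figure D3:**
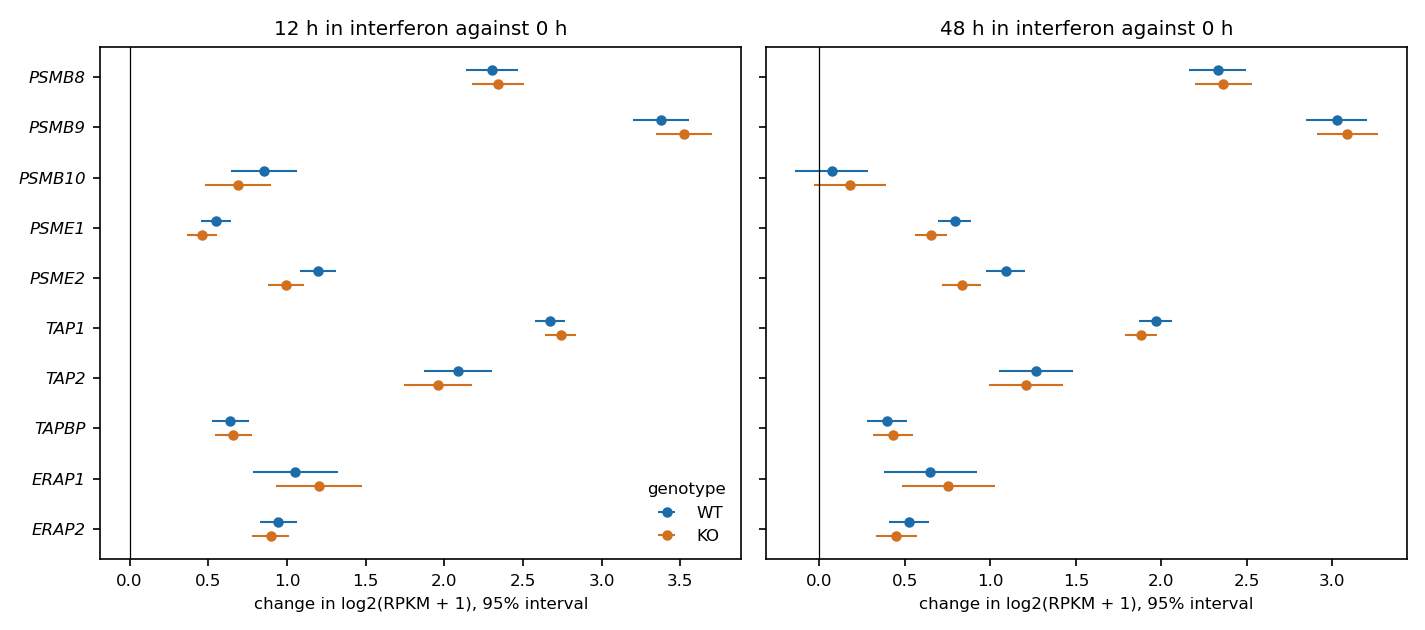
Change in log2(RPKM + 1) against untreated cells at 12 h (left) and 48 h (right) for the 10 genes, with WT in blue and KO in orange; points are limma estimates from 3 against 3 libraries and bars are 95% intervals. All intervals at 12 h lie above 0, and at 48 h only those of PSMB10 reach it.

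Summed over the 10 genes, the level was 0.0548 ± 0.00271% of the total RPKM of a library in untreated WT cells (SD, n = 3), 0.148 ± 0.00167% at 12 h and 0.126 ± 0.00338% at 48 h. In KO the share was 0.0558 ± 0.000297%, 0.139 ± 0.00102% and 0.115 ± 0.0015%. The order of the genes by RPKM changed as well. Untreated WT cells had PSME1 and PSME2 on top, whose libraries overlapped, then ERAP2 and TAP2, PSMB10 and TAPBP, and PSMB8 and TAP1 as pairs that each overlapped, then ERAP1 and last PSMB9. At 12 h in WT the order was PSME2, PSME1, TAP2, TAP1, PSMB8, PSMB9, ERAP2, PSMB10, TAPBP and ERAP1, with no overlap between neighbours. At 48 h in WT PSMB8 had moved above TAP2 and TAP1, which overlapped with each other, and TAPBP above PSMB10. In KO at 12 h, TAP1 and TAP2 overlapped, as did PSMB9 and ERAP2.

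Between 12 and 48 h most of the 10 genes declined while the class I genes HLA-B, HLA-C and B2M went on rising. In WT, 7 of the 10 genes were called lower and 1 higher, against 11.3% and 24.6% of tested genes (35.9% in either direction). In KO, 8 were called lower and 1 higher, against 14% and 27.7% (41.7% in either direction). PSMB8 was called in neither. All calls of this comparison were 3267 higher and 1505 lower in WT and 3678 and 1860 in KO, but 2138 and 2415 in WT and 2532 and 2803 in KO with median-of-ratios scaling. The 12 and 48 h libraries did not overlap for 9 of the 10 genes in each genotype, against 47.2% of tested genes in WT and 49.2% in KO. The median step of the 10 genes was -0.38 in WT and -0.44 in KO, where all tested genes had medians of 0.07 and 0.08. The decline was not limited to the 10 genes. In WT and KO, 6 and 7 of 10 other core proteasome subunits and 5 and 4 of 8 regulators were called lower. So were 2 and 3 of 5 other loading factors and 2 and 4 of 7 other peptidases, and none of these 4 lists had a gene called higher. Of 8 other activators and assembly factors, 1 was lower and 1 higher in WT, and 2 and 2 in KO. The class I genes HLA-B, HLA-C, HLA-E, HLA-F and B2M were each called higher than untreated at both times in both genotypes. From 12 to 48 h HLA-B, HLA-C and B2M rose, HLA-E fell and HLA-F was not called, in WT and in KO. HLA-B, a classical heavy chain that presents peptides, gained 3.17 at 12 h in WT and a further 1.14 from 12 to 48 h. B2M, the light chain of class I molecules, gained 1.46 and a further 0.79. Mean levels of B2M in WT were 920 ± 13 RPKM untreated, 2539 ± 61.3 RPKM at 12 h and 4401 ± 159 RPKM at 48 h (SD, n = 3). These steps were not tested against those of the 10 genes, and HLA genes are similar enough in sequence that reads may be shared among them.

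**Figure D4:**
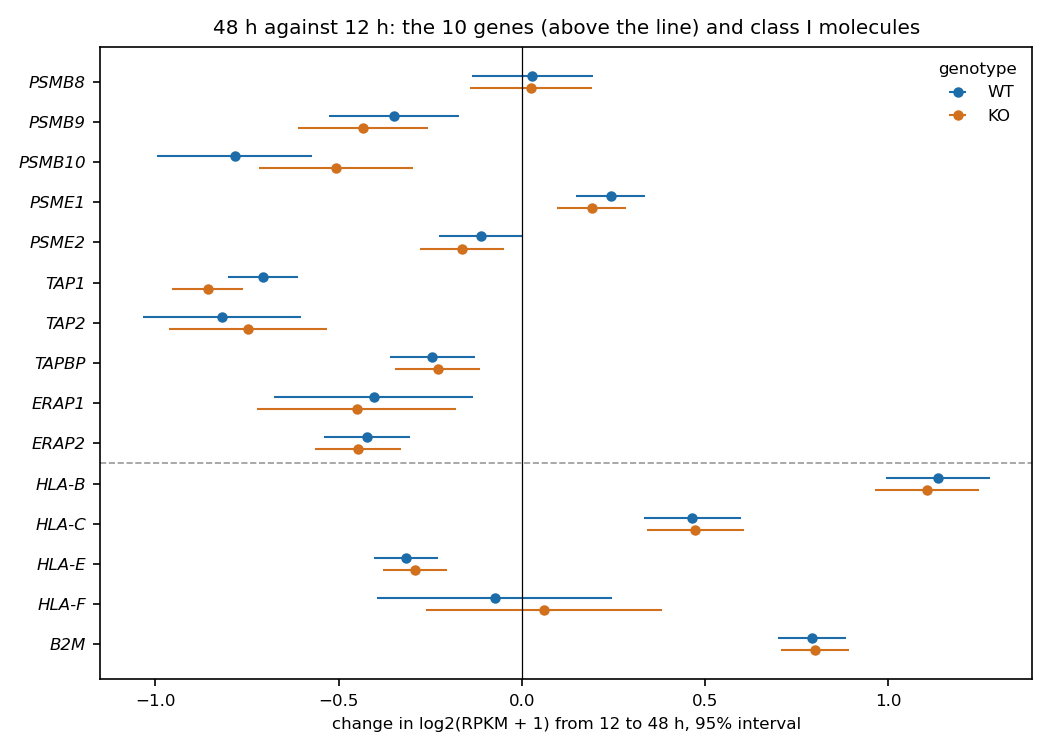
Change in log2(RPKM + 1) from 12 to 48 h in interferon for the 10 genes (above the dashed line) and 5 class I genes (below it), with WT in blue and KO in orange; points are limma estimates and bars are 95% intervals. TAP1, TAP2 and PSMB10 lie farthest below 0 among the 10 genes, PSME1 lies above 0 and PSMB8 at 0, while HLA-B, HLA-C and B2M lie above 0.

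Counts of the other pathway genes at 12 h in WT are to be read against the 15.1% of all tested genes called higher. Of 10 other core proteasome subunits tested, 6 were called higher at 12 h in WT with a median change of 0.23, led by PSMA6 (0.64), PSMA3 (0.58), PSMA4 (0.34) and PSMB2 (0.33). Of 8 other activators and assembly factors 2 were higher: PSME3, which forms another activator ring, by 0.34, and POMP, a chaperone of core assembly, by 0.23. Among 5 other loading factors 4 were higher: the tapasin-related TAPBPL by 0.89, the chaperones CALR and CANX by 0.64 and 0.38, and the disulphide isomerase PDIA3 by 0.12. Of 7 other peptide-trimming peptidases 2 were higher, the cytosolic LAP3 by 1.74 and the endosomal LNPEP by 0.56. Of the regulators, IRF9 was higher by 3.36 and STAT2 by 2.34, while IRF2 (0.23), NFKB1 (0.06) and RELA (-0.03) were not called. NLRC5, the transactivator of class I genes, gained 3.32 at 12 h in WT and fell by 0.96 from 12 to 48 h, with mean levels of 0.923 ± 0.11, 18.2 ± 1.74 and 8.85 ± 0.406 RPKM at the 3 times (SD, n = 3). Of 7 class II genes only HLA-DMA was in the table, and it did not pass the filter.

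The KO line had lower PSMB8 and PSMB9 than the WT line, and the other 8 genes were not called at any time with all libraries. Untreated, 2 of 10 genes were called, both lower (4.89% of tested genes were called, 2.07% lower; 375 higher and 275 lower, or 276 and 313 with median-of-ratios scaling). At 12 h none of the 10 was called and 2 had an unadjusted p under 0.05 (3.62% of tested genes called, 2.02% lower). At 48 h 1 was called, lower, and 5 had an unadjusted p under 0.05 (4.19% called, 2.16% lower). These percentages are of calls at an adjusted p under 0.05. The share of all tested genes with an unadjusted p under 0.05 was not computed. PSMB9 differed by -0.44 at 0 h (95% interval -0.61 to -0.26, limma adjusted p = 0.00537), -0.29 at 12 h (limma adjusted p = 0.0725) and -0.37 at 48 h (limma adjusted p = 0.0166), and at each time all 3 KO libraries lay below all 3 WT libraries. PSMB8 differed by -0.29 at 0 h (95% interval -0.46 to -0.13, limma adjusted p = 0.0417), -0.25 at 12 h (limma adjusted p = 0.0924) and -0.26 at 48 h (limma adjusted p = 0.0825), with WT and KO libraries overlapping at 0 h and apart at 12 and 48 h. Counting all genes, the KO libraries lay wholly below the WT ones in 1, 4 and 3 of the 10 genes at 0, 12 and 48 h and wholly above in none, where groups that do not overlap, in either direction, made up 23.6%, 21% and 20.2% of tested genes. Besides PSMB8 and PSMB9 these were PSMB10 and PSME1 at 12 h and TAP1 at 48 h, each without a call.

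The calls between the lines rested on few libraries. PSMB8 at 0 h lost its call in 7 alternative fits (limma adjusted p 0.0527 to 0.225), among them those without WT replicate 3, KO replicate 2 or KO replicate 3. Without WT replicate 1, whose level was the highest, its difference was -0.20 (limma adjusted p = 0.16), and in the same fit PSME2 was called higher in KO (0.20, limma adjusted p = 0.0327). PSMB9 at 48 h was not called without WT replicate 2 (limma adjusted p = 0.0935), KO replicate 1 (limma adjusted p = 0.0755) or KO replicate 3 (limma adjusted p = 0.0605), and at 0 h it lost its call when only the untreated libraries were fitted (limma adjusted p = 0.12). Both genes were lower in KO in all of these fits, which reuse the same libraries and are not independent. Within libraries, KO less WT for the log2 ratio of PSMB9 to PSMB6 was -0.47, -0.26 and -0.39 at 0, 12 and 48 h, and for that of PSMB8 to PSMB5 -0.38, -0.26 and -0.29. At each time, all KO ratios lay below all WT ratios for both pairs (exact permutation p = 0.1 for each, 0.156 after adjustment).

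**Figure D5:**
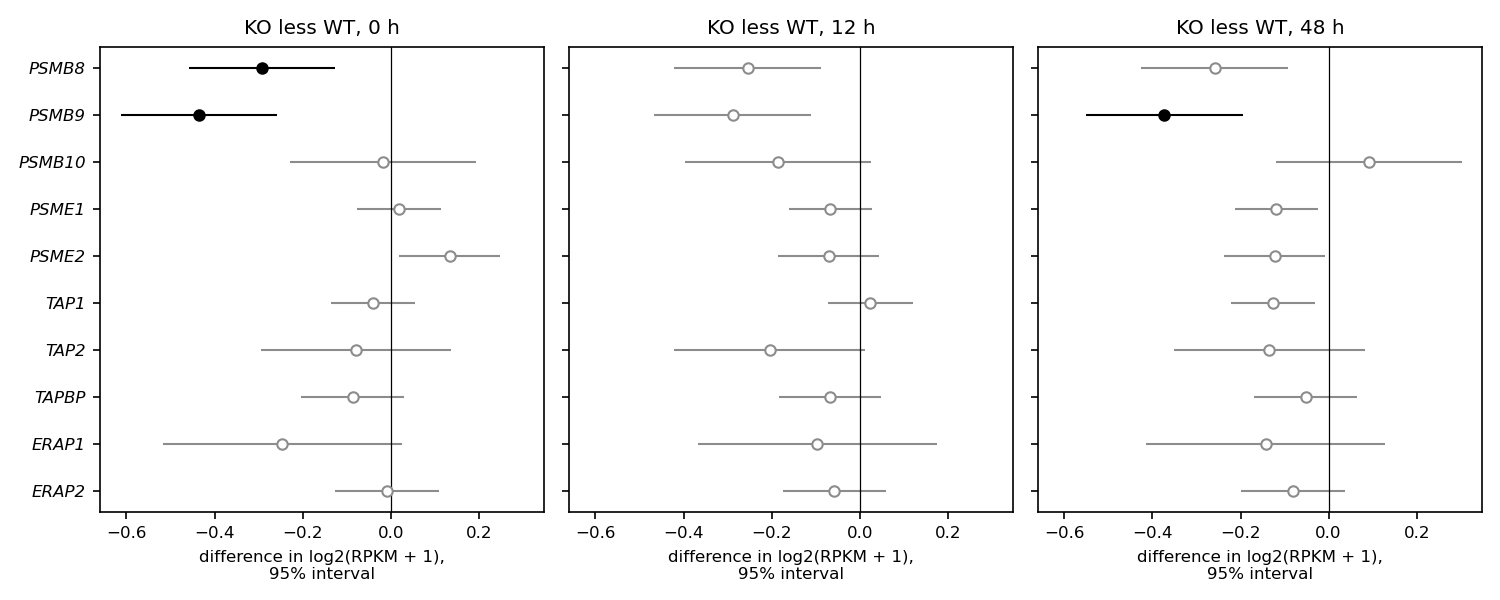
KO less WT difference in log2(RPKM + 1) for the 10 genes at 0, 12 and 48 h, with 95% intervals from limma; filled black points passed an adjusted p under 0.05 and open points did not. PSMB8 and PSMB9 lie below 0 at all 3 times, and most other intervals include 0.

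For the remaining genes the intervals bound how far the lines could differ. TAP1 differed by 0.02 at 12 h with a 95% interval of -0.07 to 0.12, and by -0.13 at 48 h with an interval of -0.22 to -0.03. ERAP1, the least precisely measured, differed by -0.25 at 0 h with an interval of -0.52 to 0.02. No gene of the 10 was called for the interaction of genotype and interferon at 12 or 48 h by limma, where 0.0753% and 0.0828% of tested genes were called. In simulated data, with changes planted in randomly drawn genes of any level, 44% of interactions of 0.5 and 93% of those of 1 were recovered at 12 h. More changes were planted than were called in the data, so these are not rates for the 10 genes. Interactions of the 10 genes could be missed, and smaller ones more easily. An unadjusted p under 0.05 was seen for 1 and 2 of the 10 at 12 and 48 h, a share not computed over all genes. The largest interaction among the 10 was that of PSME2. Its KO gain less its WT gain was -0.21 at 12 h (95% interval -0.37 to -0.04, limma adjusted p = 0.769) and -0.26 at 48 h (95% interval -0.42 to -0.09, limma adjusted p = 0.562). For PSMB9, the gene with the largest difference between the lines, it was 0.15 at 12 h (95% interval -0.10 to 0.40) and 0.06 at 48 h (95% interval -0.19 to 0.31). The difference between the lines for PSMB8 and PSMB9 stood beside lower HLA-B at 0 h (-0.39), lower HLA-F at 12 and 48 h (-0.83 and -0.69), lower IRF9 at 0 h (-0.53) and lower COL17A1, LAMB3 and SFN at 0 h (-0.20, -0.37 and -0.27). Other pathway genes went the other way at 0 h. In KO, 2 of 10 other core proteasome subunits and 1 of 7 other peptide-trimming peptidases were called higher, where 375 of 13280 tested genes were. The relation of the PSMB8 and PSMB9 difference to these genes was not tested.

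Genes with the most similar course were found by the root mean square distance between centred profiles over the 6 group means of log2(RPKM + 1), given as a description. The mean profile of the 10 genes was nearest to TRIM5 (0.0764), ZNFX1 (0.0776), LAP3 (0.0855), SLFN5 (0.0922) and CD68 (0.09245). Among themselves, TAPBP and ERAP2 were nearest to each other (0.117), as were TAP1 and TAP2 (0.330), and the member nearest to PSMB9 was PSMB8 (0.469). PSMB8 was nearest to TAP1 (0.350) and PSMB10 to ERAP2 (0.160). Outside the 10, the nearest gene to TAP1 was NMI (0.0480), to TAP2 STARD5 (0.0643), to PSMB8 UBA7 (0.182), to PSMB9 HELZ2 (0.175), to PSMB10 SERPINB8 (0.0571), to PSME1 C6orf62 (0.0421), to PSME2 ZCCHC2 (0.0735), to TAPBP BAK1 (0.0135), to ERAP1 OGFR (0.0498) and to ERAP2 MFSD12 (0.0363). The nearest genes of PSMB8 and PSMB9 were thus farther away than those of the other 8.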

How the data were processed

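PolyA RNA was sequenced from 18 libraries of NIKS cells, 3 in each of 6 groups. The authors deposited 1 table of RPKM values with 16472 gene IDs, rounded to 2 decimals. The submitters' processing notes name cutadapt, STAR 2.6.1, RSEM 1.3.0, limma 3.50.3 and build hg19, without their roles; the annotation, the strand setting and the reads behind the scaling are not given in the sources used here. RPKM hides the number of reads, so no count model was fitted. Symbols, promoter sequences (RefSeq, GRCh38.p14) and gene overlaps (GENCODE) were joined by gene ID or symbol, with no coordinates of the files' build printed.

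Values were transformed to log2(RPKM + 1), a fold change scale that understates changes of low genes, and the 13280 genes at 1 RPKM or more in at least 3 libraries were tested with limma 3.58.1 (R 4.3.3). A cell-means model over all 18 libraries, with variances following a mean trend, gave 11 comparisons, each adjusted by Benjamini-Hochberg over all tested genes. Ratios within libraries were compared by exact two-sided permutation. The model was tested on simulated data. Named genes were the 10 genes, PSMB5, PSMB6, PSMB7, SP100, up to 4 called genes of each pathway list by size of change at 12 h in WT, and the nearest profiles; other genes, the class I steps from 12 to 48 h among them, were named after their values were seen. The members and lists were chosen with earlier results of these data known. Alternatives were another pseudocount, other filters, variances without a trend, median-of-ratios scaling, fitting the compared libraries alone, a replicate block, and leaving out each library. Some members of the pathway lists are not reported here.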

Additional observations from a re-analysis of the deposited data

How the results depend on the processing

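All 520 alternative fits of the 40 interferon changes of the 10 genes kept direction and side of the threshold. The number of genes called between KO and WT was less stable. At 0 h it was 2, against 1 with variances without a trend, 1 with the replicate block, 0 when only the compared libraries were fitted, and 1 to 2 when a single library was left out, where the 2 without WT replicate 1 were PSMB9, lower in KO, and PSME2, higher. At 12 h it was 0, against 1 with the compared libraries alone. At 48 h it was 1, against 0 to 1 when a library was left out. With a pseudocount of 0.1 the PSMB9 to PSMB6 ratio changed by 3.60 and 3.31 in WT and 3.89 and 3.47 in KO at 12 and 48 h.

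Some changes near 0 turned in sign. With a library left out, the PSMB10 to PSMB7 change at 48 h in WT ranged from -0.137 to 0.0491, and the ERAP1 to ERAP2 change in WT from -0.0494 to 0.202 at 12 h and -0.031 to 0.221 at 48 h. The step of PSMB8 from 12 to 48 h was -0.0581 in WT and -0.067 in KO with median-of-ratios scaling, and without a library it lay between -0.0013 and 0.0472 in WT and between -0.009 and 0.0888 in KO. KO less WT at 0 h with that scaling was -0.0022 for PSME1. Without a library it ranged from -0.0045 to 0.0431 for PSME1, -0.1225 to 0.0982 for PSMB10 and -0.0613 to 0.0358 for ERAP2 at 0 h, and from -0.0169 to 0.0515 for TAP1 and -0.1665 to 0.0322 for ERAP1 at 12 h.

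Median-of-ratios scaling moved the median of all genes at 12 h, which was -0.0855 in WT and -0.0946 in KO, to -0.0025 and -0.0013. No pairing of libraries by replicate number was detected. Over 45 pairs of libraries with the same number, the correlation of deviations had a median of -0.013, from -0.097 to 0.157. The replicate block changed no other count of the 10 genes. Total read numbers are unknown, so counting intervals were not computed.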

Other observations

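PSMB8, PSMB9, TAP1 and TAP2 lie next to each other in the class II region of the major histocompatibility complex on chromosome 6. PSMB9 with TAP1 and PSMB8 with TAP2 were compared within libraries after their values had been seen. The RefSeq starts of PSMB9 and TAP1 face away from each other across a short interval, while these genes overlap in the GENCODE annotation. The PSMB9 to TAP1 difference in log2(RPKM + 1) was higher at 48 h than at 12 h by 0.36 in WT and 0.42 in KO (exact permutation p = 0.1 for each, 0.156 after adjustment over 14 tests). KO less WT, it was -0.39 at 0 h, where the lines overlapped (exact permutation p = 0.2), -0.31 at 12 h and -0.25 at 48 h (exact permutation p = 0.1 for each). The PSMB8 to TAP2 difference was higher at 48 h than at 12 h by 0.85 in WT and 0.77 in KO (exact permutation p = 0.1 for each, 0.156 after adjustment). At 12 h less 0 h it was 0.22 in WT, with overlap (exact permutation p = 0.3), and 0.38 in KO (exact permutation p = 0.1). KO less WT, it was -0.21, -0.05 and -0.12 at 0, 12 and 48 h, with overlap each time (exact permutation p = 0.2, 0.8 and 0.5). For PSMB9 to TAP1, 12 h less 0 h was 0.70 in WT and 0.78 in KO (exact permutation p = 0.1 for each). PSMB8, PSMB9 and TAP1 overlap a neighbour among them and the transcript PSMB8-AS1 (0.42 to 8.11 RPKM) in the GENCODE annotation, and the strand setting of the counting is not given in the sources used here.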
